A study of Mus musculus with 12 samples.

Results

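The aryl hydrocarbon receptor pathway was read in mouse nasal tissue through 7 rows of a gene count table, taken by name because diesel particles carry ligands of this receptor. The rows were Arnt, Cyp1a1, Cyp1a2, Cyp1b1, Aldh3a1, Nqo1 and 4931440P22Rik, out of 55487 rows in all. Of the 7, 4 passed the filter on low counts (Arnt, Cyp1a2, Aldh3a1 and 4931440P22Rik), as did 13181 rows of the table, and Cyp1a1, Cyp1b1 and Nqo1 did not. 4931440P22Rik stands in the set because it lies opposite Tiparp, a target gene of the receptor, and is not itself a known part of the pathway.

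Nasal RNA came from C57BL/6 male mice of 6 weeks in 3 groups of 4 libraries, namely KDP20 at day 10, KDP20 at day 5 and PBS vehicle, which carries the day 10 label. KDP20 is the label of the exposure, and the series title speaks of diesel particles and nasal inflammatory dysfunction. Dose and route were not given in the sources used here. Nothing in the labels says whether the 12 libraries stand for 12 animals, so each p-value describes the spread among these libraries, which may in part be technical. Day 10 against vehicle is matched on day, whereas in day 5 against vehicle exposure and day cannot be told apart.

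The receptor, AHR, is a transcription factor held in the cytosol with the chaperone HSP90. Once a ligand such as a polycyclic aromatic hydrocarbon binds, it enters the nucleus, pairs with ARNT and binds DNA elements with the core GCGTG. Its best known targets are the cytochrome P450 genes of the CYP1 family, which oxidise the ligands, while AHRR and TIPARP restrain the receptor in turn. Nasal epithelium, olfactory epithelium in particular, is rich in enzymes that process inhaled chemicals.

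Depth was 1658420 to 3227138 counts per library. Levels are given as CPM, edgeR's depth-normalised count on library sizes scaled by TMM, which corrects totals for differences in composition. The row CT010467.2 took 11.2% to 25.5% of counts at day 10, 9.69% to 12.6% at day 5 and 7.25% to 10.1% in vehicle, so the day 10 libraries did not overlap vehicle. The labels name nasal epithelium, and the 7 own rows of epithelial markers summed to 35.4 to 77.6 CPM at day 10, 44.7 to 72.0 at day 5 and 45.7 to 63.8 in vehicle. The 2 rows opposite epithelial markers (Elf3 and Krt8) summed to 517 to 836 CPM at day 10, 800 to 1024 at day 5 and 612 to 728 in vehicle. The 7 own rows of olfactory neuron markers summed to 276 to 338 CPM at day 10, 265 to 385 at day 5 and 244 to 357 in vehicle, and the 2 rows opposite them to 5448 to 6606 CPM at day 10, 6294 to 8236 at day 5 and 6171 to 8448 in vehicle. In bulk tissue, fewer cells of a type and less RNA per cell cannot be told apart.

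Whether reads were counted by strand is not given in the sources used here. It is thus not known whether reads of exons that overlap on different strands were told apart. A row is called opposite a gene when at least 50 bases of their exons overlap on different strands. In GENCODE M21, of the 7 members only 4931440P22Rik has such a partner. Several rows opposite genes of these lists held far more counts than the genes' own rows. Over the 12 libraries Gm15883 held 598300 counts and Cyp2f2 1831, and Gm15283 held 16401 and Hif1a 186. Gm20528 held 8900 and Ugt1a6a 4, and 4931440P22Rik held 762 and Tiparp 50. Only part of the exon bases is shared, 274 of the 2025 of Cyp2f2 with Gm15883 and 330 of the 5896 of Hif1a with Gm15283. Which strand the rows report was not tested. Own rows may thus fail to report the mRNA, and a low count in any member's row is given as that row's count and not as the amount of the mRNA.

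The overlap of 4931440P22Rik with Tiparp is short. 4931440P22Rik, annotated as a transcribed processed pseudogene, runs on the minus strand at chr3:65507257-65529379 (GRCm38/mm10) with 4437 exon bases, and Tiparp runs on the plus strand at chr3:65528410-65555518 with 4358. They share 223 bases, chr3:65528410-65528632, in Tiparp exon 1, which is 5.03% of the exon bases of 4931440P22Rik and 5.12% of those of Tiparp. The 4931440P22Rik exon that holds them is 1725 bases long and covers the region just before the Tiparp start as well.

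**Figure D1:**
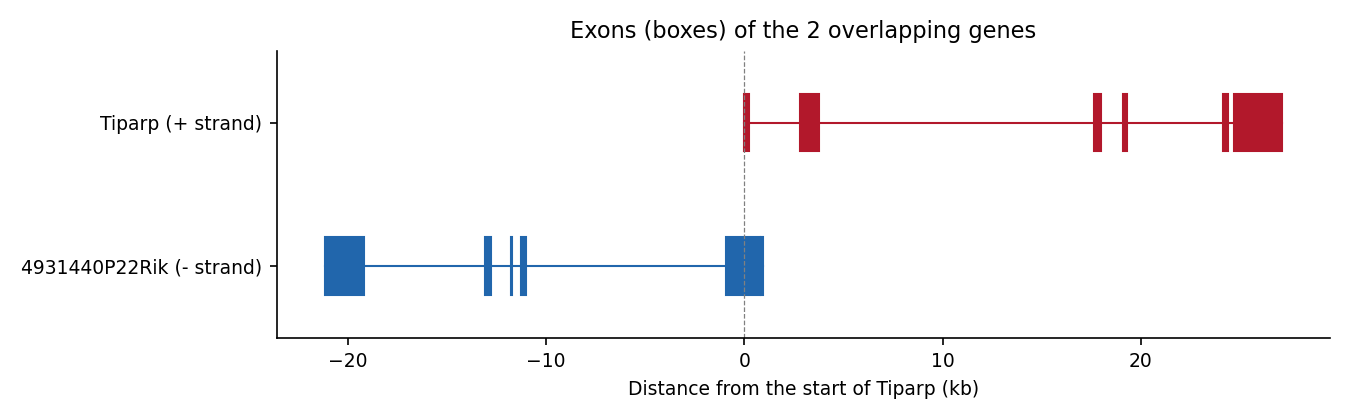
Exons of Tiparp and 4931440P22Rik from GENCODE M21, drawn by distance in kb from the start of Tiparp. Boxes are exons and lines the introns between them; the exons of the 2 genes meet in 223 bases at the Tiparp start.

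Promoter sequences from RefSeq (GRCm38.p6, 250 bases before to 50 after the start) matched 7 of 10 genes looked up. The core was searched as GCGTG and, for the other strand, CACGC. It was found in the windows of Arnt, Cyp1a1, Cyp1b1, Tiparp and Ahrr and not in those of Cyp1a2 and Nqo1, and 32.4% of 32851 windows of this length hold it, so its presence is common. The stretches below show the core, in capitals, in the 3 members that hold it, each on the gene's own strand with 10 bases on either side. They lie at chr3:95434351-95434375 (plus), chr9:57697549-57697573 (plus) and chr17:79715123-79715147 (minus).
Arnt: atagtttgggGCGTGtcttctgccc
Cyp1a1: agataaggagGCGTGgccaacagac
Cyp1b1: tcccgcccctCACGCcccaccccct

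Before the shared exon bases, the Tiparp window (chr3:65528197-65528409, plus strand) lies wholly inside an exon of 4931440P22Rik. This stretch holds no exon base of Tiparp and ends just before the shared bases. It is printed for its place at the Tiparp start, with the core on the other strand in capitals.
Tiparp: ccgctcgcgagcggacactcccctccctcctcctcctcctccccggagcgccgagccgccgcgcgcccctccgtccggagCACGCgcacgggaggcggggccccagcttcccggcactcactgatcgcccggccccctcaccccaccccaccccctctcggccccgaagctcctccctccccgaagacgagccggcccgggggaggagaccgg
A match is a description of the letters and not of binding.

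Among the members, 4931440P22Rik was higher at day 10 and Arnt was lower at day 5, both against vehicle. None of the other 5 members passed the test in any of the 3 comparisons, Cyp1a1, Cyp1b1 and Nqo1 being read from a fit without the filter. In day 10 against vehicle 1 of 4 tested members was called higher, where 3.93% of all tested rows were, and none was called lower, where 3.15% were. In day 5 against vehicle 1 of 4 was called lower, where 0.25% were, and none higher, where 0.41% were. In day 10 against day 5 edgeR called 0 of 4, where 4.66% of tested rows were called higher and 5.49% lower. In that comparison 2 of the 4 (Arnt and 4931440P22Rik) had an unadjusted edgeR p under 0.05, where 3252 of the 13181 tested rows did. DESeq2 called 1 (Arnt) there and limma-voom called 0. Calls rest on an adjusted p under 0.05 from the edgeR quasi-likelihood test with Benjamini-Hochberg adjustment over all 13181 rows. In the fit without the filter the adjustment ran over every row with any count. Arnt and 4931440P22Rik were known from earlier results of these data when the set was chosen, so these counts are a description.

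Read per kilobase of exon, the members differed widely in level. Over the 12 libraries 4931440P22Rik averaged 7.00 ± 1.81 CPM per kilobase (SD, n = 12), Cyp1a2 4.36 ± 2.09, Aldh3a1 3.85 ± 2.07 and Nqo1 1.66 ± 0.808. Arnt averaged 0.959 ± 0.489 CPM per kilobase, Cyp1a1 0.720 ± 0.665 and Cyp1b1 0.201 ± 0.189. Neighbours in this order differed by less than the larger SD of the pair, except 4931440P22Rik and Cyp1a2, and Aldh3a1 and Nqo1.

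ARNT is the partner that AHR, HIF1A and several other transcription factors need in order to bind DNA. In the Arnt row (chr3:95434388-95497240, plus strand) the 4 day 10 libraries held 11, 10, 11 and 22 counts, or 5.66, 6.87, 6.90 and 12.6 CPM. The day 5 libraries held 6, 8, 7 and 9 counts, or 2.55, 3.85, 3.27 and 4.53 CPM. The vehicle libraries held 29, 45, 25 and 19 counts, or 12.0, 12.6, 12.7 and 8.61 CPM. Every day 5 library lay below every vehicle library and below every day 10 library, while day 10 reached into the vehicle range through replicate 5 alone.

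Arnt thus averaged 3.55 ± 0.845 CPM at day 5 and 11.5 ± 1.94 CPM in vehicle (SD, n = 4 each), a log2 fold change of -1.69 (SE 0.38), and fell with an adjusted p of 0.0384 in edgeR. In this comparison 11.7% of all tested rows had groups that did not overlap. The 30 day 5 and 118 vehicle counts gave a ratio of pooled CPM of 0.302, with a 95% interval of 0.195 to 0.454 for counting error alone. The call was lost in 7 of the 12 fits that left out 1 library, those without any day 5 library or without vehicle replicate 2, 4 or 6, with an adjusted p of up to 0.169. Without day 5 replicate 5 the log2 fold change was -1.55.

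At day 10 Arnt averaged 8.00 ± 3.10 CPM, against 11.5 ± 1.94 CPM in vehicle, a log2 fold change of -0.52 (SE 0.35, edgeR adjusted p 0.391), and the groups overlapped. Day 10 stood above day 5 by 1.17 on the log2 scale (SE 0.40) without passing the test (edgeR adjusted p 0.0640), although the groups did not overlap, as held for 12.5% of tested rows. Without day 10 replicate 1 the same difference passed, at 1.31 (edgeR adjusted p 0.0288). These comparisons share libraries, so the values are given side by side. Beside the Arnt values, 4 of 27 marker sums did not overlap between day 5 and vehicle, as held for 11.7% of all tested rows. The 6 ciliated cell rows summed to 291 to 346 CPM at day 5 and 368 to 451 CPM in vehicle, and the row opposite a ciliated marker held 473 to 535 CPM at day 5 and 544 to 615 CPM in vehicle. The 2 rows opposite epithelial markers, given above, lay higher at day 5 than in vehicle. The 2 rows opposite the endothelial marker Nos3 summed to 87.4 to 96.8 CPM at day 5 and 70.5 to 81.9 CPM in vehicle. The 5 own rows of endothelial markers overlapped, summing to 86.4 to 104 CPM at day 5 and 87.8 to 150 in vehicle. Called higher by edgeR were the row opposite the basal cell marker Krt5, by 0.94 on the log2 scale, at 395 to 1085 CPM at day 5 and 304 to 534 CPM in vehicle, and 1 of 3 rows opposite skeletal muscle markers, whose sums were 9.34 to 613 CPM at day 5 and 4.98 to 69.1 CPM in vehicle. Their part in the Arnt difference was not tested.

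The receptor's own row, Ahr, was low throughout. It held 28, 8, 14 and 9 counts in the day 10 libraries, 11, 17, 27 and 20 at day 5 and 11, 14, 2 and 15 in vehicle, and the groups overlapped. Ahr differed from vehicle by 1.05 on the log2 scale at day 10 (SE 0.48, edgeR adjusted p 0.178) and by 1.09 at day 5 (SE 0.47, edgeR adjusted p 0.245). Vehicle replicate 5, with 2 counts, was the lowest of the 12 libraries.

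Gm48236, a lincRNA, shares 127 of its 817 exon bases with Ahr on the other strand and held more counts than Ahr. It averaged 89.2 ± 7.12 CPM at day 10, 94.1 ± 9.83 CPM at day 5 and 72.4 ± 2.79 CPM in vehicle. All 4 libraries at either day lay above all 4 of vehicle. Groups without overlap were found for 9.98% of tested rows in day 10 against vehicle. The log2 fold changes of Gm48236 did not pass the test, at 0.30 at day 10 (SE 0.14, edgeR adjusted p 0.184) and 0.38 at day 5 (SE 0.14, edgeR adjusted p 0.166). AHRR, which competes with AHR for ARNT, had 3, 3, 3 and 6 counts in its Ahrr row at day 10, 4, 6, 6 and 16 at day 5 and 2, 13, 1 and 4 in vehicle, too few to pass the filter. Without the filter the log2 fold change of Ahrr against vehicle was 0.29 at day 10 (SE 0.75, edgeR adjusted p 0.940). At day 5 it was 1.04 (SE 0.69, edgeR adjusted p 0.696).

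CYP1A1 is the classical induced P450 of this pathway. Its row (chr9:57687928-57703824, plus strand) held 2, 3, 2 and 2 counts in the day 10 libraries, 17, 6, 0 and 5 at day 5 and 2, 5, 2 and 6 in vehicle. Day 5 replicate 5 alone held 17 of the 28 day 5 counts, while day 5 replicate 7 held 0, which allows up to 1.40 CPM (3 counts of the scaled library). Day 10 had 9 counts in all, or 1.33 pooled CPM (95% exact Poisson interval 0.610 to 2.53), day 5 had 28 or 3.27 CPM (2.17 to 4.73), and vehicle had 15 or 1.48 CPM (0.826 to 2.43). Such intervals and limits cover counting error only.

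Cyp1a1 averaged 1.37 ± 0.468 CPM at day 10, 3.16 ± 3.00 CPM at day 5 and 1.49 ± 0.852 CPM in vehicle (SD, n = 4 each), so the spread at day 5 exceeded every difference between group means. Fitted without the filter, its log2 fold change was -0.12 at day 10 (SE 0.86, edgeR adjusted p 1) and 1.08 at day 5 (SE 0.76, edgeR adjusted p 0.734), both against vehicle. Day 10 against day 5 gave -1.21 (SE 0.82, edgeR adjusted p 0.576). No rise of the Cyp1a1 row was detected at this depth. Own rows may fail to report the mRNA, so the row alone does not settle whether the mRNA rose.

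CYP1A2, its neighbour on chromosome 9 (chr9:57676937-57683703, minus strand), is separated from the Cyp1a1 gene by 4224 bases, and in mouse it is also a known P450 of olfactory mucosa. The Cyp1a2 row held 9, 17, 13 and 21 counts at day 10, or 4.63, 11.7, 8.16 and 12.0 CPM. At day 5 it held 21, 13, 9 and 37 counts, or 8.92, 6.25, 4.20 and 18.6 CPM, against 25, 37, 10 and 11 in vehicle, or 10.4, 10.3, 5.08 and 4.98 CPM. All 3 groups overlapped, and the highest and the lowest library were both at day 5.

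Cyp1a2 averaged 9.11 ± 3.46 CPM at day 10, 9.50 ± 6.39 at day 5 and 7.70 ± 3.08 in vehicle (SD, n = 4 each). Its log2 fold change was 0.20 at day 10 (SE 0.44, edgeR adjusted p 0.830) and 0.26 at day 5 (SE 0.43, edgeR adjusted p 0.822), both against vehicle, and -0.07 for day 10 against day 5 (SE 0.44, edgeR adjusted p 0.950). With total-count scaling the day 10 value turned to -0.04. Summed CPM of the 8 rows of sustentacular and Bowman gland markers, a list that holds Cyp1a2, was 373 to 690 at day 10, 450 to 1158 at day 5 and 639 to 1102 in vehicle.

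CYP1B1, a P450 outside the liver that also activates polycyclic hydrocarbons, had the sparsest row (chr17:79701537-79715061, minus strand). Cyp1b1 held 2, 2, 1 and 5 counts at day 10, 1, 2, 0 and 7 at day 5 and 2, 0, 4 and 1 in vehicle. The sum was 10 counts at day 10, 10 at day 5 and 7 in vehicle, and the zeros in day 5 replicate 7 and vehicle replicate 4 allow up to 1.40 and 0.839 CPM. Without the filter its log2 fold change was 0.92 at day 10 (SE 1.05, edgeR adjusted p 0.705) and 0.62 at day 5 (SE 1.04, edgeR adjusted p 0.901), both against vehicle. Day 10 against day 5 gave 0.30 (SE 1.02, edgeR adjusted p 0.989). The groups overlapped, and differences of this size were not detectable in so few counts.

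NQO1, a quinone reductase, and ALDH3A1, an aldehyde dehydrogenase, answer both to AHR and to the oxidative stress factor NRF2. The Nqo1 row (chr8:107388225-107403206, minus strand) held 5, 2, 4 and 6 counts at day 10, 7, 2, 10 and 9 at day 5 and 6, 11, 2 and 3 in vehicle. It summed to 17 counts at day 10, 28 at day 5 and 22 in vehicle, and all groups overlapped. Without the filter its log2 fold change was 0.28 at day 10 (SE 0.73, edgeR adjusted p 0.944) and 0.65 at day 5 (SE 0.69, edgeR adjusted p 0.745), both against vehicle, and -0.38 for day 10 against day 5 (SE 0.71, edgeR adjusted p 0.882).

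The Aldh3a1 row (chr11:61207537-61218421, plus strand) held 20, 11, 20 and 6 counts at day 10, 26, 3, 7 and 14 at day 5 and 15, 53, 12 and 13 in vehicle. In CPM these were 10.3, 7.55, 12.6 and 3.43 at day 10, 11.0, 1.44, 3.27 and 7.05 at day 5 and 6.22, 14.8, 6.09 and 5.89 in vehicle. Vehicle replicate 4 stood above every other library, and the groups overlapped. The log2 fold change of Aldh3a1 was -0.01 at day 10 (SE 0.47, edgeR adjusted p 0.995) and -0.56 at day 5 (SE 0.49, edgeR adjusted p 0.631), both against vehicle, and 0.55 for day 10 against day 5 (SE 0.51, edgeR adjusted p 0.554). With DESeq2 size factors the day 10 value was 0.01.

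**Figure D2:**
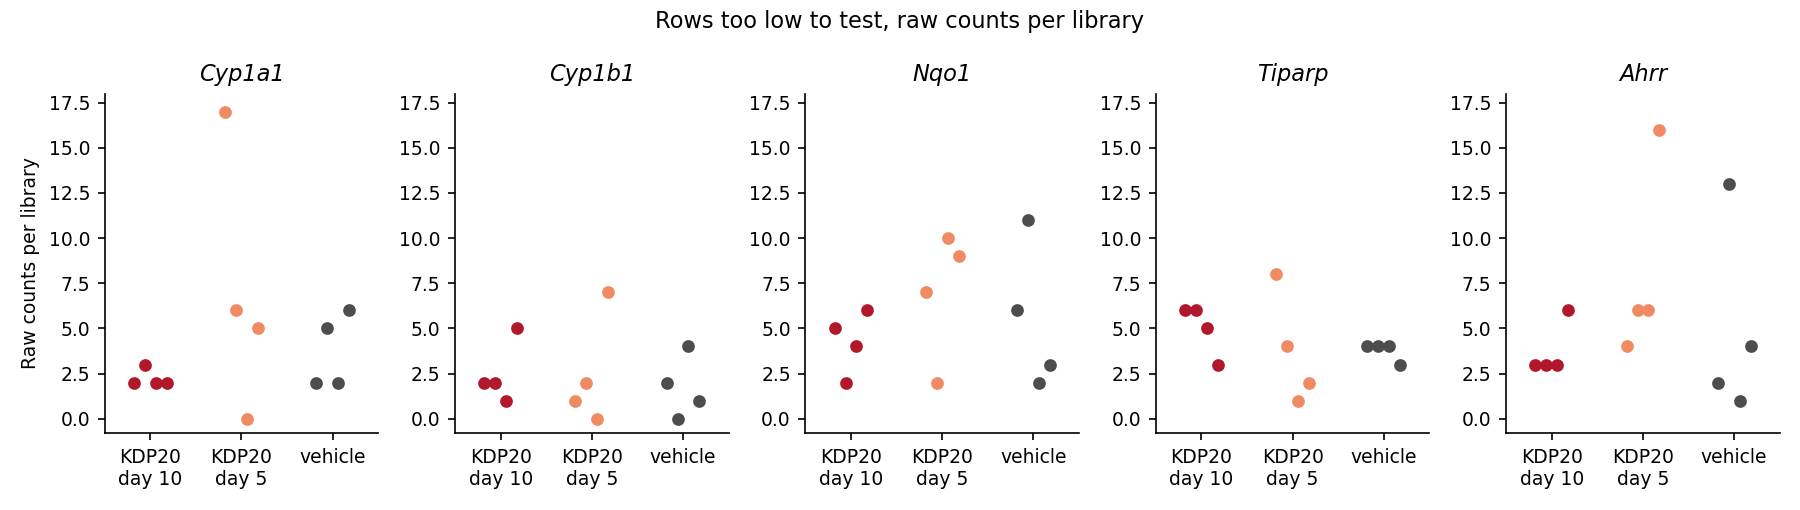
Raw counts per library of Cyp1a1, Cyp1b1, Nqo1, Tiparp and Ahrr in KDP20 day 10, KDP20 day 5 and vehicle, 1 point per library. No library exceeds 17 counts and the 3 groups overlap in each row.

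TIPARP is an ADP-ribosyltransferase that the receptor induces and that feeds back on it. The Tiparp row held 6, 6, 5 and 3 counts at day 10, 8, 4, 1 and 2 at day 5 and 4, 4, 4 and 3 in vehicle, and failed the filter. The 4931440P22Rik row opposite it held 83, 63, 51 and 74 counts at day 10, or 42.7, 43.3, 32.0 and 42.3 CPM. At day 5 it held 76, 44, 66 and 58 counts, or 32.3, 21.2, 30.8 and 29.2 CPM, against 70, 75, 47 and 55 in vehicle, or 29.0, 21.0, 23.9 and 24.9 CPM. All 4 day 10 libraries lay above all 4 vehicle libraries, whereas day 5 overlapped both.

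The 4931440P22Rik row averaged 40.1 ± 5.38 CPM at day 10 and 24.7 ± 3.34 CPM in vehicle (SD, n = 4 each), and rose by 0.70 on the log2 scale (SE 0.20, edgeR adjusted p 0.0368). Day 5 averaged 28.4 ± 4.97 CPM, 0.21 above vehicle on the log2 scale (SE 0.20, edgeR adjusted p 0.679). Day 10 against day 5 gave 0.50 (SE 0.20, edgeR adjusted p 0.120). The Tiparp row itself gave 0.96 for day 10 against vehicle without the filter (SE 0.79, edgeR adjusted p 0.596).

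**Figure D3:**
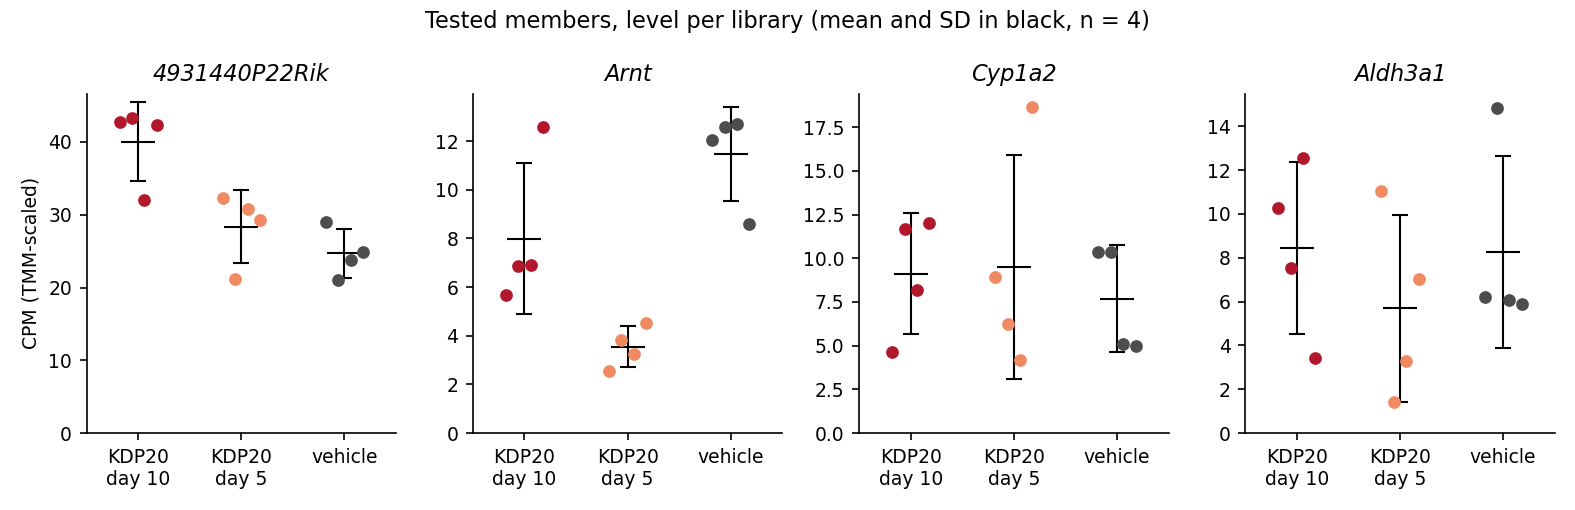
Level in CPM of the 4 tested members in each library of KDP20 day 10, KDP20 day 5 and vehicle, with mean and SD in black. For 4931440P22Rik the day 10 libraries (32.0 to 43.3 CPM) lie above vehicle (21.0 to 29.0), and for Arnt the day 5 libraries (2.55 to 4.53) lie below both other groups.

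The call on 4931440P22Rik held with DESeq2 size factors (0.72, edgeR adjusted p 0.0314) and upper-quartile scaling (0.69, edgeR adjusted p 0.0408). With total-count scaling, which makes no correction for composition and was chosen after seeing the data, the median log2 fold change of all tested rows was -0.22 for day 10 against vehicle, where it was -0.01 with TMM, and 4931440P22Rik gave 0.49 (edgeR adjusted p 0.129). Calls over all rows then split into 187 higher and 1132 lower, against 518 higher and 415 lower with TMM. For day 5 against vehicle that scaling gave 21 higher and 65 lower, against 54 and 33, and for day 10 against day 5 it gave 343 and 791, against 614 and 723. The median of all rows then stood at -0.16 for day 5 against vehicle and -0.07 for day 10 against day 5.

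The call was also lost in 6 of the 12 fits without 1 library (without day 10 replicate 2 or 5 or any vehicle library), with log2 fold changes of 0.63 to 0.80. With the share of CT010467.2 as a covariate the log2 fold change was 0.72 (edgeR adjusted p 0.999), and with that row left out it was called as before. Without day 10 libraries 2, 3 and 5, in which that share was highest, the remaining day 10 library gave 0.80 (edgeR adjusted p 0.811), where 1 sample is assumed to vary like the others. Of 27 marker sums 3 did not overlap between day 10 and vehicle, as held for 9.98% of all tested rows. The 6 own rows of skeletal muscle markers summed to 23.9 to 41.7 CPM at day 10 and 17.8 to 22.7 CPM in vehicle. The 2 rows opposite the endothelial marker Nos3 summed to 91.1 to 198 CPM at day 10 and 70.5 to 81.9 CPM in vehicle. The 5 own rows of endothelial markers overlapped, summing to 102 to 150 CPM at day 10 and 87.8 to 150 in vehicle. The row opposite a neutrophil marker held 0 to 0.628 CPM at day 10 and 2.90 to 19.9 CPM in vehicle. Among tested own marker rows edgeR called lower 1 of 6 airway secretory, 1 of 6 ciliated and 1 of 7 sustentacular and gland rows. Of rows opposite markers it called lower 1 of 2 olfactory neuron rows, the sustentacular row (-0.70 on the log2 scale) and the neutrophil row. It called 1 of the 2 rows opposite Nos3 higher. Of all tested rows 3.15% were called lower and 3.93% higher. Their part in the result was not tested. The 7 own rows of neutrophil markers summed to at most 5.14 CPM in any library. S100a8, Ly6g and Cxcr2 held 0 counts in all 12 libraries. S100a9 and Elane, at 0 in all day 10 libraries, held 3 and 2 counts over the 12.

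**Figure D4:**
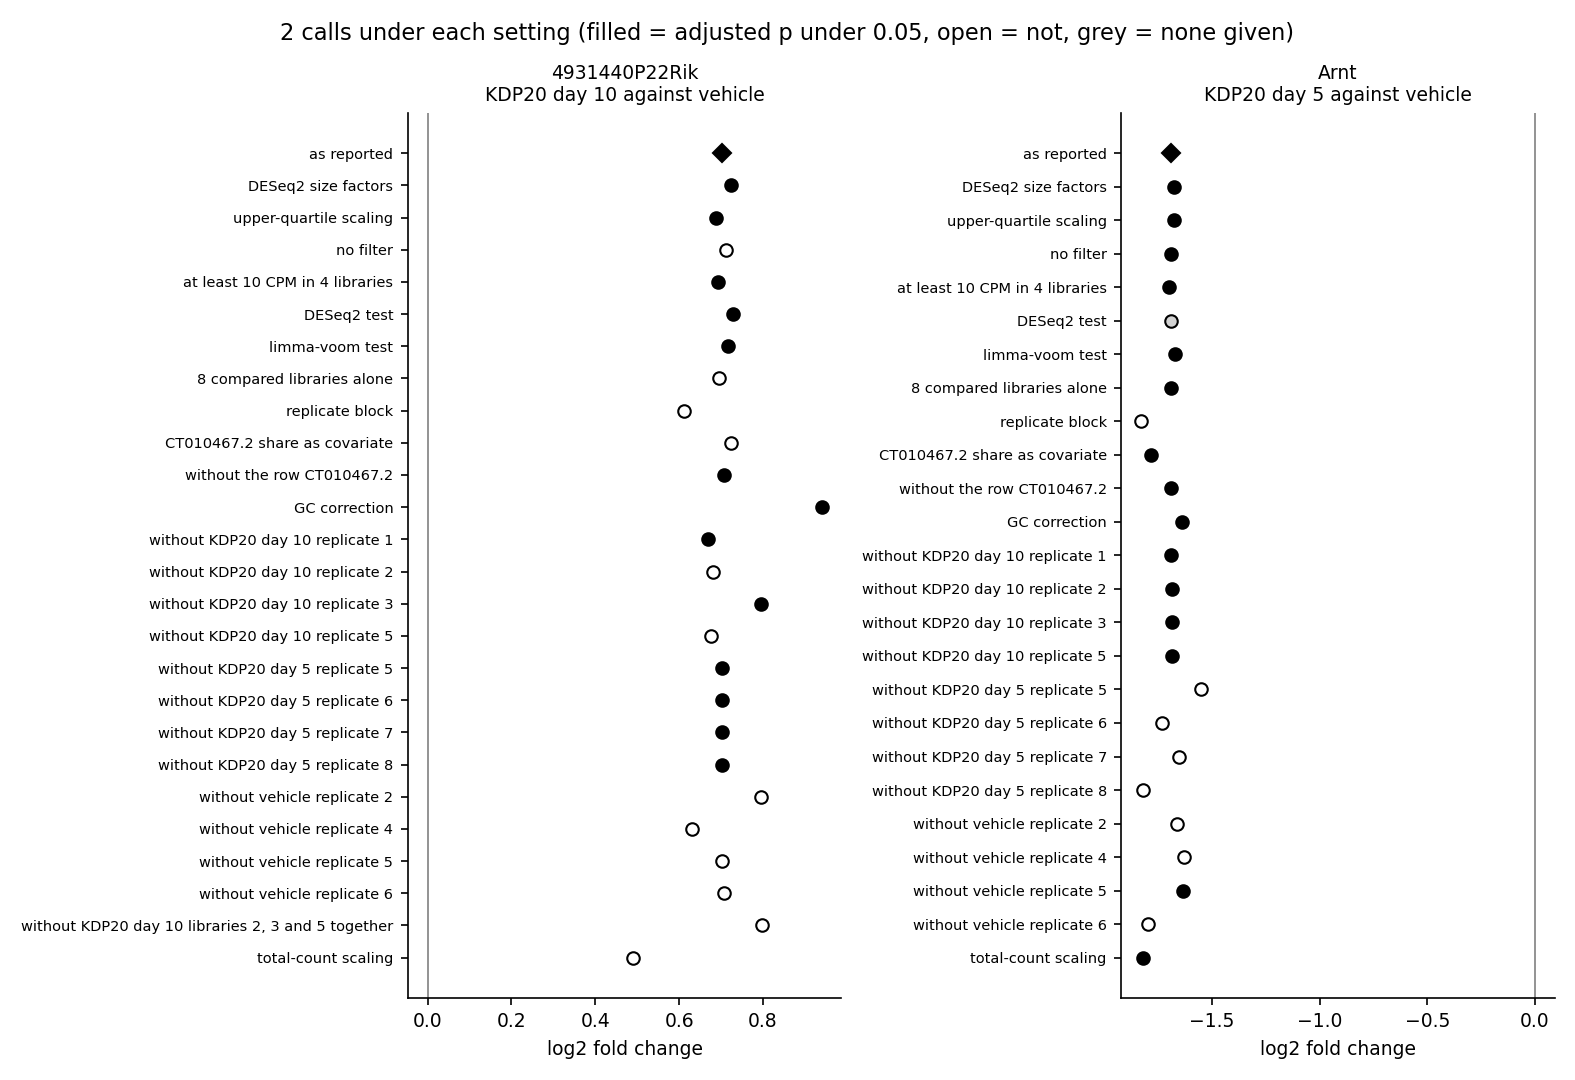
Log2 fold change of 4931440P22Rik (KDP20 day 10 against vehicle) and Arnt (KDP20 day 5 against vehicle) under each setting, filled where the adjusted p is under 0.05 and grey where none was given. The direction holds in every setting plotted, from 0.49 to 0.94 for 4931440P22Rik and from -1.83 to -1.55 for Arnt, while the call does not.

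Of 11 rows of the receptor complex, a list that holds Ahr and Arnt, 8 were tested. Against vehicle edgeR called 1 (Arnt) lower at day 5, where 0.25% of all tested rows were, and 0 at day 10. An unadjusted edgeR p under 0.05 was held by 2 at day 10 and 3 at day 5. Of all 13181 tested rows 3137 and 2144 held one. At day 5 DESeq2 called 1 row other than Arnt, which it gave no adjusted p, and limma-voom called 1. At day 10 DESeq2 and limma-voom called 0. The median log2 fold change of the tested rows was 0.06 at day 10, where it was -0.01 for all rows, and -0.18 at day 5, where it was -0.03. Hsp90aa1, an inducible HSP90 gene, was higher at day 10 (36.5 ± 9.70 CPM) than at day 5 (22.5 ± 1.60 CPM). The difference was 0.70 on the log2 scale (SE 0.21, edgeR adjusted p 0.0330), while limma-voom called 0 of the 8 in that comparison. There edgeR called 1 of the 8 higher, where 4.66% of all tested rows were, and DESeq2 called 2. Against vehicle (36.3 ± 3.54 CPM) Hsp90aa1 gave -0.70 at day 5 (SE 0.20, edgeR adjusted p 0.0911). Hsp90ab1, the other HSP90 row of the list, gave 0.08 for day 10 against day 5 (SE 0.29, edgeR adjusted p 0.899). At day 5 against vehicle Hsp90ab1 gave -0.08 (SE 0.28, edgeR adjusted p 0.929). The row 4921501I09Rik, which shares 68 bases with the coactivator gene Ncoa1, fell at day 10 against day 5 by 0.97 on the log2 scale (edgeR adjusted p 0.0114). It was the 1 called of 3 tested rows opposite this list, where 5.49% of all tested rows were called lower.

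**Figure D5:**
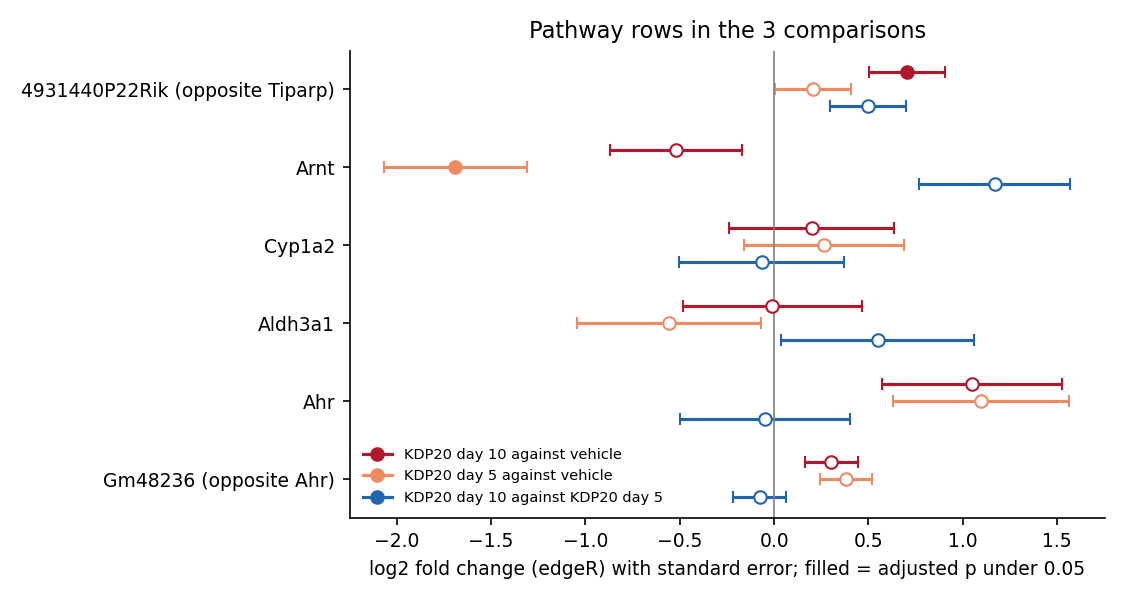
Log2 fold change with standard error of the 4 tested members, Ahr and Gm48236 in the 3 comparisons, filled where the edgeR adjusted p is under 0.05. Only 4931440P22Rik at day 10 (0.70) and Arnt at day 5 (-1.69), both against vehicle, are filled.

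Of 17 rows of receptor targets 5 passed the filter, and edgeR called 0 of them in any of the 3 comparisons. None had an unadjusted p under 0.05, and DESeq2 and limma-voom called 0. Ugt1a6a, Ugt1a6b, Ugt1a7c, Gsta1 and Ereg held 0 counts in all day 10 libraries. Over all 12 libraries they held only 4, 0, 7, 1 and 1 counts in turn. Gm20528, which shares 394 bases with Ugt1a6a, Ugt1a6b and Ugt1a7c (glucuronosyltransferases), held 363 to 1072 counts per library. Gm20528 averaged 277 ± 46.7 CPM at day 10 and 426 ± 18.8 CPM at day 5, and fell by 0.62 on the log2 scale (SE 0.13, edgeR adjusted p 0.00460). Of 3 tested rows opposite the targets 1 was called lower in that comparison, where 5.49% of all tested rows were. Against vehicle (338 ± 35.2 CPM) Gm20528 was called at neither day, with an adjusted p of 0.177 at day 10 and 0.184 at day 5 in edgeR.

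Of 11 own rows of factors that pair with ARNT or its relatives 5 were tested, and edgeR, DESeq2 and limma-voom called 0. In edgeR 1 had an unadjusted p under 0.05 at either day against vehicle and 0 for day 10 against day 5. Of all 13181 tested rows 3137 did at day 10 and 2144 at day 5, both against vehicle. Gm15283, which shares 330 bases with Hif1a, the hypoxia factor, averaged 511 ± 44.5 CPM at day 10 and 794 ± 41.9 CPM at day 5, and fell by 0.64 on the log2 scale (SE 0.12, edgeR adjusted p 0.00308). Of 2 tested rows opposite these factors 1 was called lower there, where 5.49% of all tested rows were. Hif1a itself, at 7.87 ± 1.94 CPM at day 10 and 6.79 ± 0.578 CPM at day 5, gave 0.21 (SE 0.35, edgeR adjusted p 0.770).

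Of 12 own rows of hypoxia targets 5 were tested, and edgeR called 1, higher at day 10 than at day 5, where 4.66% of all tested rows were. DESeq2 called 2 in that comparison and limma-voom 1. Of 7 rows opposite them 6 were tested. Among these edgeR called 1 higher at day 10 than in vehicle (3.93% of all rows). It called 1 lower at day 10 than at day 5 (5.49%) and 0 at day 5 against vehicle. DESeq2 called 2 at either day against vehicle, and limma-voom 1 at day 10 and 2 at day 5. An unadjusted edgeR p under 0.05 was held by 5 at day 10 and 4 at day 5, both against vehicle. Of all 13181 tested rows 3137 and 2144 held one. Car9, a carbonic anhydrase, averaged 65.2 ± 19.4 CPM at day 10 and 36.4 ± 8.47 CPM at day 5, and rose by 0.84 on the log2 scale (SE 0.21, edgeR adjusted p 0.0134). Gm12868, which shares 105 bases with the glucose transporter gene Slc2a1, averaged 200 ± 45.4 CPM at day 10 and 123 ± 20.2 CPM in vehicle, and rose by 0.70 (SE 0.16, edgeR adjusted p 0.0123). Gm45507, opposite Bnip3, a mitochondrial autophagy receptor gene, fell by 0.75 at day 10 against day 5 (SE 0.17, edgeR adjusted p 0.00593).

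Among 10 NRF2 targets, which include Nqo1 and Aldh3a1, 5 own rows were tested, with 0 called by edgeR, DESeq2 or limma-voom and 0 at an unadjusted p under 0.05. Ikbkg, a regulator of NF-kappaB that lies opposite G6pdx, averaged 143 ± 16.7 CPM at day 5 and 94.7 ± 10.8 CPM in vehicle, and rose by 0.59 (SE 0.14, edgeR adjusted p 0.0469). It was the 1 called of 2 tested rows opposite these targets, where 0.41% of all tested rows were called higher. Of 16 nasal xenobiotic enzyme rows 7 were tested and 0 called by edgeR, DESeq2 or limma-voom. In edgeR 2 had an unadjusted p under 0.05 for day 10 against day 5, where 3252 of 13181 tested rows did, and 0 against vehicle. Gm15883, opposite the P450 gene Cyp2f2, averaged 19522 ± 1782 CPM at day 10 and 26729 ± 2725 CPM at day 5, and fell by 0.45 (SE 0.13, edgeR adjusted p 0.0244). Of 2 tested rows opposite the enzymes 1 was called lower there, where 5.49% of all tested rows were.

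Over the 12 libraries Pearson's r of log2 CPM between the 4 tested members ran from -0.10 to 0.22 over 6 pairs. The rows most like Arnt were Pla2g3 (r = 0.93), Flicr (0.92), Slc1a1 (0.90), Minpp1-ps (0.90) and Miga1 (0.89), and those most like 4931440P22Rik were Runx2os1 (0.91), Chrm3 (0.90), Arhgef19 (0.90), Fam53b (0.88) and Bmyc (0.86). Cyp1a2 was most like Sobp (0.91), Mylk (0.83), Rbfox2 (0.83), Cacnb3 (0.83) and Slit2 (0.81). Aldh3a1 was most like Dmap1 (0.83), Aldh2 (0.83), Cbr2 (0.82), Parvaos (0.81) and Dyrk1b (0.81). These r values share the depth and group structure of the 12 libraries and were picked as the highest of all tested rows, so they are descriptions.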

How the data were processed

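The deposited unit is counts per gene. Per the submitters' processing notes, the authors used FastQC, Trim Galore, STAR and HTSeq with mm10; tool versions, annotation and strand setting were not given in the sources used here. Per the labels, an RNeasy kit gave the RNA and a SMARTER mRNA-Seq kit the libraries. The quasi-likelihood F test of edgeR 4.0.16 (R 4.3.3) was run on all 12 libraries together, on rows kept by filterByExpr, after TMM scaling, in a model of group alone. The tested rows held 98.3% of counts. A standard error is the absolute log2 fold change over the root of F. Values of Cyp1a1, Cyp1b1, Nqo1, Tiparp and Ahrr came from the fit without the filter, with p adjusted over every row with any count. Opposite rows, exon lengths and positions came from GENCODE M21, where 55227 of 55487 identifiers were found. Correlations used log2 CPM with a prior count of 2. The procedure was tested on simulated data.

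The members, lists and tests were chosen with earlier results of these data known. The genes named are the 7 members, Tiparp, Ahr, Ahrr and rows opposite them, up to 4 called rows of each pathway list, and the 5 rows most like each tested member, without Gm and Rik gene models. Alternatives were DESeq2 1.42.0 size factors, upper-quartile scaling, no filter or at least 10 CPM in 4 libraries, limma-voom (limma 3.58.1) or DESeq2 as the test, a fit of only the 8 libraries compared, a block on replicate number, the CT010467.2 share as a covariate, that row left out, a GC correction (loess, span 0.5) and leaving out each library. Leaving out 3 day 10 libraries together and total-count scaling were added after seeing the data.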

Additional observations from a re-analysis of the deposited data

Results flagged for a closer look

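In 21 groups of 4 libraries, 3 held a library far from the other 3 by Dixon's test at the 95% level, which chance gives in about 1 of 20 groups. The 4931440P22Rik level of day 10 replicate 3 was 32.0 CPM, below the other day 10 libraries. The Arnt level of vehicle replicate 6 was 8.61 CPM, below the other vehicle libraries, and the Aldh3a1 level of vehicle replicate 4 was 14.8 CPM, above the other vehicle libraries.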

How the results depend on the processing

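The rise of 4931440P22Rik at day 10 (0.70) was past the threshold in 7 of 13 settings other than leaving out 1 library. It missed it with the 8 compared libraries alone (0.69), no filter (0.71), the CT010467.2 covariate (0.72), total-count scaling (0.49) and without day 10 libraries 2, 3 and 5 (0.80); leaving out 1 library gave 0.63 to 0.80. The fall of Arnt at day 5 (-1.69) gave -1.82 to -1.55 without 1 library, and DESeq2 gave it no adjusted p. Day 10 against day 5 passed for Arnt with the 10 CPM filter (1.17) and DESeq2 (1.19), with 0.86 to 1.31 without 1 library, and for 4931440P22Rik with the GC correction (0.67). The cause was not tested.

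Same-numbered libraries deviated with correlations of -0.09 to 0.12 over 5 pairs. Differently numbered pairs were not computed beside them, so these values cannot decide whether equal numbers mark a pairing. With the replicate block 4931440P22Rik gave 0.61 (day 10 against vehicle, edgeR adjusted p 0.168) and Arnt -1.83 (day 5 against vehicle, edgeR adjusted p 0.235), neither past the threshold. Calls over all rows became 1701 for day 10 and 33 for day 5, both against vehicle. Uncalled members turned sign with it: Aldh3a1 to 0.053 at day 5 and -0.59 for day 10 against day 5, Cyp1a1 to 0.15 at day 10, Cyp1a2 to 0.23 and Nqo1 to 0.014 for day 10 against day 5, and Cyp1b1 to -0.70 at day 5.

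Calls for day 10 against vehicle (933) became 423 with the 8 libraries alone, 401 with the GC correction (326 higher, 75 lower), and 0 with the CT010467.2 covariate or without the 3 day 10 libraries; edgeR gave 3137 rows at an unadjusted p under 0.05 in the fit as reported, and leaving out 1 library gave 95 (without day 10 replicate 5) to 2684 (without day 10 replicate 1). Calls for day 5 against vehicle (87) became 278 without filter, 135 with the 10 CPM filter, 514 with DESeq2, 284 with limma-voom, 656 with the 8 libraries alone and 370 with the covariate, and 5 (without day 5 replicate 5) to 569 (without day 10 replicate 1). Calls for day 10 against day 5 (1337) became 2 with the covariate and 0 without the 3 libraries, and 623 (without day 10 replicate 5) to 2689 (without day 10 replicate 1).

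Other uncalled members changed sign as follows. For day 10 against vehicle, Aldh3a1 gave 0.85 with the covariate, 0.014 with DESeq2 size factors, 0.031 in DESeq2, 0.27 without the 3 libraries and -0.25 to 0.48 without 1 library; Cyp1a1 gave 0.050 with limma-voom and -0.35 to 0.26 without 1 library; Cyp1a2 gave -0.43 with the covariate, -0.75 without the 3 libraries and -0.042 with total-count scaling; Cyp1b1 gave -0.091 with the covariate. For day 5 against vehicle, leaving out 1 library gave -0.27 to 0.51 for Cyp1a2 and -0.66 to 1.49 for Cyp1b1. For day 10 against day 5, Cyp1a2 gave 0.046 with limma-voom and -0.31 to 0.47 without 1 library, Cyp1b1 gave -0.54 with the covariate, -0.21 without the 3 libraries and -0.24 to 1.56 without 1 library, and Nqo1 gave 0.21 with the covariate. Depth limits the low members, as 3 counts stood for 0.839 to 2.06 CPM. Apart from depth, whether their rows report the mRNA is not known.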
